A study of Homo sapiens with 4 samples.

Results

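The nuclear genes of oxidative phosphorylation encode the subunits of the respiratory chain and of ATP synthase, and their chromatin accessibility was followed here in mouse grafts of the pancreatic ductal carcinoma line Panc1, which is of human origin. Members were chosen by symbol alone: protein-coding nuclear genes beginning NDUFA, NDUFB, NDUFC, NDUFS, NDUFV, UQCR, COX4I, COX5, COX6, COX7, COX8, ATP5F1, ATP5M or ATP5P, together with the succinate dehydrogenase subunits SDHA, SDHB, SDHC and SDHD and with CYC1, and without the NDUFAF assembly factors. This gave 88 of the 19974 protein-coding genes considered: 38 of complex I, 4 of complex II, 10 of complex III, 17 of complex IV and 19 of complex V. Single-nucleus ATAC-seq, in which a transposase cuts open chromatin, had been run on 4 grafts in mice, 2 given the carrier alone (Carrier 12 and Carrier 31, named by the mouse number) and 2 given inflachromene (Inflachromene 11 and Inflachromene 35), a small molecule known as a ligand of the HMGB proteins. All 4 libraries share the cell line and the graft. The labels used here give no mouse strain or age, no dose and no length of treatment, and a graft of 1 cell line says nothing of other tumours. With 2 mice per group, every p-value below rests on 4 mice. The tests drew the spread of each gene end or region in part from that of all the others. The questions addressed were how open the ends of these genes were and whether the treated grafts differed from the carrier grafts.

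The respiratory chain passes electrons from NADH (complex I) and succinate (complex II) through complex III to oxygen at complex IV, and the proton gradient so built drives ATP synthase, complex V. A handful of its subunits are encoded in mitochondrial DNA and are not covered here; the rest come from the nucleus and are imported. Because the subunits are needed in fixed proportion, their promoters have long been studied for shared control, with NRF1, the ETS factor GABP (its DNA-binding subunit is GABPA), YY1 and the estrogen-related receptors as the textbook regulators. Several complex IV subunits exist as a widely used isoform and a muscle, lung or testis isoform.

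Of the 88 genes, 70 matched an entry in the RefSeq promoter table (build GRCh38.p14), with 83 annotated starts, and 73 of those starts lay inside a region open in all 4 libraries. The window read was 250 bases before to 50 bases after each start. Motifs were searched on both strands as GCGCANGCG for NRF1, CCGGAAG for ETS factors, AAGATGGCG for YY1, AAGGTCA for the estrogen-related receptors, CCAAT for NFY, TGACGTCA for CREB, GGGCGG for SP and KLF factors, TATAAA for the TATA box and CACGTG for the MYC E-box. A match is a description of letters and not of binding. The upstream sequences below are shown because they carry the most matches or belong to members whose values the results turn on. That of COX6A2 stands for the tissue isoforms without a region open in all 4 libraries. Each runs 5′ to 3′ on the gene's strand and ends at the base before the start. Capitals mark matches to the NRF1, ETS, YY1, estrogen-related receptor, NFY and CREB motifs.

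The complex II flavoprotein gene SDHA (chr5:218130-218319, plus strand) held 4 NRF1 matches, 166, 117, 68 and 19 bases before its start and so spaced 49 bases apart each time. The complex I subunit gene NDUFB4 (chr3:120596156-120596335, plus strand) held NRF1 matches 159, 63 and 8 bases (the first overlapped by another 1 base on, the last running past the start and so not in capitals) and an estrogen-related receptor match 39 bases before its start. The complex III subunit gene UQCR11 (chr19:1605463-1605602, minus strand) held ETS matches 117 and 97 bases and NRF1 matches 28 and 9 bases before its start.
SDHA: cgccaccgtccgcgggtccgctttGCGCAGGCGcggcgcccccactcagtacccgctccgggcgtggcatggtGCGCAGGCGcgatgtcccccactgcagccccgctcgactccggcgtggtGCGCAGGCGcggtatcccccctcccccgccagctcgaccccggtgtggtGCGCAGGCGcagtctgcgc
NDUFB4: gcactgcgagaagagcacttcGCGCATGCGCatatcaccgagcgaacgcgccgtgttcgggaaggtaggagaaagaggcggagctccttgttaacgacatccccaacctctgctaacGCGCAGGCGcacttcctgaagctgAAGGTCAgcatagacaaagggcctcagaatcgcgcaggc
UQCR11: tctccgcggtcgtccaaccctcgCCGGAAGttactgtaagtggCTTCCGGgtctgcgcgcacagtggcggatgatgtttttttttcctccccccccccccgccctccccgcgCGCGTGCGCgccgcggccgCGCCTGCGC

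Other members combined different motifs or carried a single one. SDHD (chr11:112086743-112086872, plus strand), a membrane anchor of complex II, had an NRF1 match 110 bases and an ETS match 77 bases before the start. ATP5PF (chr21:25735055-25735194, minus strand), a stalk subunit of ATP synthase, had NRF1, YY1 and ETS matches 120, 57 and 30 bases before the start. COX5B (chr2:97645982-97646061, plus strand) and COX8A (chr11:63974470-63974619, plus strand), both subunits of complex IV, had ETS matches 37 and 18 bases before their starts, and COX8A a CCAAT match 132 bases before. A further COX5B ETS match, 5 bases before the start, ran past it and so is not in capitals.
SDHD: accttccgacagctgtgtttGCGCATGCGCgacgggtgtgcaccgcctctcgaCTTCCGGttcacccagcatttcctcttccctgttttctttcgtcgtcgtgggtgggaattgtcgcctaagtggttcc
ATP5PF: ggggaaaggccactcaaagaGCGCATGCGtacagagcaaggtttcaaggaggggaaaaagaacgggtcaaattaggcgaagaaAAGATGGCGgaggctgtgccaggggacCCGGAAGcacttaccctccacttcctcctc
COX5B: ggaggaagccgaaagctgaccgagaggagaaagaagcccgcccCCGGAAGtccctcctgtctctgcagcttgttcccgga
COX8A: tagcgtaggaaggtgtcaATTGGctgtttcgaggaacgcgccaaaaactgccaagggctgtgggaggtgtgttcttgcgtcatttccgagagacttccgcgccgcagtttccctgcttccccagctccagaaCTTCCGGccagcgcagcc

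The remaining sequences show other arrangements. NDUFS8 (chr11:68030471-68030680, plus strand), an iron-sulfur subunit of complex I, held 4 CCAAT matches and none for NRF1, ETS factors or YY1. ATP5MC1 (chr17:48892587-48892786, plus strand), which encodes the c-ring subunit of ATP synthase and was the most accessible member, also held 4 CCAAT matches, with a CREB match 57 bases before the start. ATP5MG (chr11:118401546-118401605, plus strand), a membrane subunit of ATP synthase, held an estrogen-related receptor match 35 bases before the start. COX6A2 (chr16:31428361-31428480, minus strand), the heart and muscle isoform of COX6A, held 1 CCAAT match and lay outside every region open in all 4 libraries.
NDUFS8: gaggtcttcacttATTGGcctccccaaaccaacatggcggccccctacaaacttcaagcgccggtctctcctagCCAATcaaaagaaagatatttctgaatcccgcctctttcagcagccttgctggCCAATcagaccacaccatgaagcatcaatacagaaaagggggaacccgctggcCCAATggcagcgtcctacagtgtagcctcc
ATP5MC1: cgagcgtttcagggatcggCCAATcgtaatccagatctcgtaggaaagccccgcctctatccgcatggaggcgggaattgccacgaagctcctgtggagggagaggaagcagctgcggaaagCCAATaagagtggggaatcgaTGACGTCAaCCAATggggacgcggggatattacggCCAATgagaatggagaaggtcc
ATP5MG: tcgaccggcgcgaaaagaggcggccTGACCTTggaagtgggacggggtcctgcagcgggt
COX6A2: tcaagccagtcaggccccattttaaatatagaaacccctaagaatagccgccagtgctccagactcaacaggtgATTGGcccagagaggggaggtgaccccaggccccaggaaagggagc

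Over the 73 open starts, matches to the respiratory regulators were more frequent than over all 12140 open starts of protein-coding genes. NRF1 matches stood in 30.1% of member starts and 15.6% of all open starts, ETS matches in 30.1% and 20.1%, YY1 matches in 13.7% and 4.17%, and estrogen-related receptor matches in 13.7% and 2.16%. At least 1 of the NRF1, ETS and YY1 motifs stood in 43 of the 73 member starts (58.9%), against 34.98% of all open starts. The order turned for SP and KLF matches, in 67.1% of member starts and 74.4% of all, and for CCAAT, in 30.1% and 36.5%. CREB matches stood in 6.85% and 3.34% and TATA boxes in 8.22% and 4.68%. No match of the NRF1, ETS, YY1 and estrogen-related receptor motifs overlapped a match of another of these in a member start. With overlapping matches counted as 1, 4 or more NRF1 matches were found in SDHA, in no other member with an open start, and in 7 of the 12140 open starts. 4 or more CCAAT matches were found in NDUFS8, ATP5MC1 and ATP5F1E, the epsilon subunit of ATP synthase, which is 4.11% of member starts against 1.69% of all. These shares are descriptions, and base composition was not matched: the median GC content of open member starts was 61.0% against 66.3%.

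The genes of the mitochondrial ribosome, which are also nuclear and mitochondrial in product, differed from the members in which motif was frequent. Their 82 open starts held ETS matches in 40.2% and NRF1 matches in 18.3%, and estrogen-related receptor matches in 6.10%. YY1 matches stood in 15.9% of them and at least 1 of the NRF1, ETS and YY1 motifs in 62.2%, both above the shares in members. The 77 open starts of cytosolic ribosomal protein genes held NRF1 matches in 11.7% and estrogen-related receptor matches in 3.90%. NRF1 and estrogen-related receptor matches were thus at their highest share in the respiratory genes among these sets, as the bar chart of motif shares shows, with no test of the difference.

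**Figure D1:**
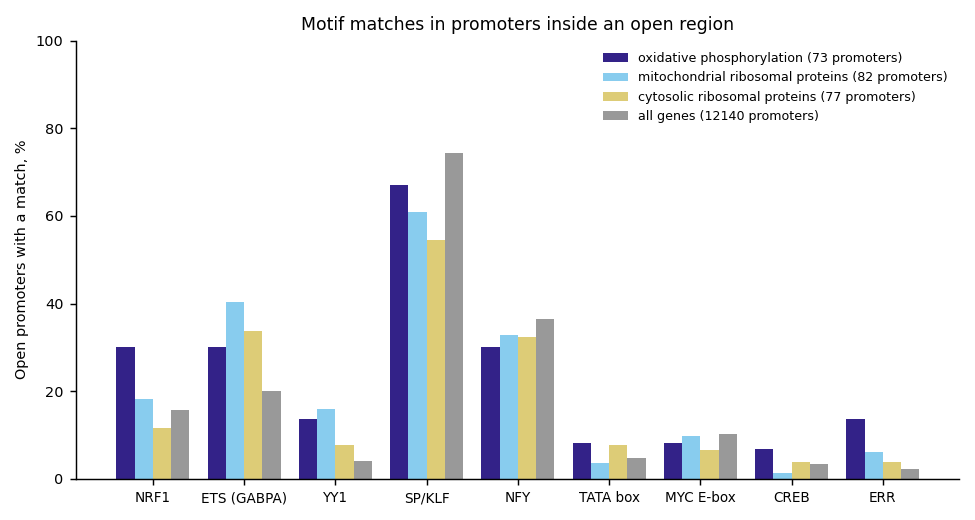
Share of open promoters, in percent on the vertical axis, that held a match to each motif on either strand, for oxidative phosphorylation genes, mitochondrial ribosomal protein genes, cytosolic ribosomal protein genes and all protein-coding genes. NRF1 stands at 30.1% in the respiratory genes against 15.6% in all genes, and the estrogen-related receptor (ERR) motif at 13.7% against 2.16%.

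The depth and the identity of the libraries set the frame for what follows. The libraries held 27088391 to 39947056 counts over 2039 to 5186 barcodes, of which 939 to 2070 had at least 2000 counts. The libraries shared cell barcodes: Carrier 12 and Inflachromene 11 had 1209 in common, 23.3% and 29.7% of their barcodes, of which 10 had at least 2000 counts in both. Other pairs shared 25 to 357. The counts of calls, and the member values that moved most, are therefore also given without those barcodes. Of 8 genes marking Panc1 carcinoma cells, 7 had a peak in all 4 libraries and KRT7 did not. None of 5 endothelial and none of 6 acinar and endocrine markers did, while 3 of 5 fibroblast and 5 of 6 leukocyte markers did. Median levels were 15.4 gene-end CPM per kb over 3 fibroblast markers, 20.7 over 4 leukocyte markers and 48.2 over 7 carcinoma markers. Only markers with a region open in all 4 libraries at an end enter these medians. Gene-end CPM are counts per 1000000 of a library's counts summed over all gene ends. In that sum a region at the ends of several genes counts once for each gene. The part of the fibroblast and leukocyte markers in the results was not tested.

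A gene was called open when every library had a called peak within 1000 bp of either of its outer ends. This held for 76 of the 88 members (86.4%), against 12813 of 19974 protein-coding genes (64.1%), 74 of 77 mitochondrial ribosomal protein genes (96.1%) and 82 of 84 cytosolic ribosomal protein genes (97.6%). By complex, 36 of 38 complex I genes, all 4 of complex II, 9 of 10 of complex III, 10 of 17 of complex IV and 17 of 19 of complex V were open. Another 5 members had a peak in 1 or 2 libraries, and 7 had none (7.95%, against 25.04% of all genes). Of the 7 complex IV genes left out, 5 are tissue isoforms, which are described next.

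Of the 12 genes without an open end, 11 are described here and fell into 2 kinds. In COX7A2, COX7A2L, NDUFA5 and ATP5MC2 an open region stood at an annotated start inside the outer gene ends. COX7A2, the liver-type and widely used isoform of COX7A, had 45.7 and 51.8 in the Carrier libraries and 49.9 and 46.8 in the Inflachromene libraries at its inner start, in region CPM, which are counts per 1000000 counts of the library in all consensus regions (log2 fold change -0.01). The related COX7A2L, which takes part in joining complexes III and IV, had 50.4, 62.5, 69.9 and 64.4 in the order Carrier 12, Carrier 31, Inflachromene 11 and Inflachromene 35 (0.25). Both treated libraries of COX7A2L lay above both carrier libraries, but its log2 fold change came to 0.11 without Carrier 12, to 0.41 without Carrier 31 and to 0.02 in a fit with an offset for the surrounding 10 Mb window. The NDUFA5 region, of a complex I subunit, had 43.95, 49.5, 51.6 and 43.6 (0.03) and that of ATP5MC2 64.7, 72.1, 73.4 and 68.0 (0.05), with overlapping groups. For the treatment difference, adjusted p was 0.9996 for all 4 regions (edgeR's quasi-likelihood test, Benjamini-Hochberg over all regions). Since each gene had an open region at an inner start, the definition by outer ends, and not a closed gene, kept these members out.

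The other 7 had no open region anywhere in the gene or at its ends. They were COX4I2, the lung isoform of COX4I, COX6A2 and COX7A1, the heart and muscle isoforms, COX7B2 and COX8C, which are known from testis, and the intronless copies UQCRHL and ATP5MGL. Within them COX6A2 had a peak in Carrier 31 (144 counts) and Inflachromene 11 (168 counts), and COX4I2 had one in Carrier 12 (209 counts); neither followed the treatment. Their widely used partners were open. COX4I1 had 38.8 and 36.4 gene-end CPM per kb in Carrier 12 and 31, and 41.4 and 34.4 in Inflachromene 11 and 35. COX6A1, whose value covers its start region and a weaker region, had 59.8, 58.0, 56.0 and 56.0 in that order. COX7B had 65.8, 69.3, 65.2 and 69.4. COX8A stood at 80.04, 80.9, 92.0 and 95.2, and UQCRH, the hinge subunit of complex III, at 139, 151, 143 and 147. COX6B was the exception among the pairs, since the testis isoform COX6B2 (68.7, 72.0, 70.1 and 52.9) also had an open end. COX6B1 (66.3, 66.4, 68.5 and 66.6) was at about that level per kb, but its value covers 2 regions. Its start region had 63.6, 71.8, 75.4 and 66.9 region CPM, and the other had 5.79, 4.74, 6.90 and 3.89. The COX6B2 region, at 37.6, 43.5, 44.1 and 29.4 region CPM, was below the COX6B1 start region in every library. The COX6B2 region did not hold the annotated start of COX6B2, which lay in no open region, and it also lies at an end of the neighbouring gene GARIN5B. The 3 genes of the c-ring, which encode the same mature protein, ranged from ATP5MC3 at 46.1, 51.7, 57.5 and 48.3 to ATP5MC1 at 363, 374, 339 and 362. The gene once called NDUFA4, now placed with complex IV, is listed as COXFA4 and is no member by symbol; its start region was open in all 4 libraries with 85.3, 84.7, 86.0 and 81.3 region CPM.

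Of the 83 annotated starts of members, 73 lay inside a region open in all 4 libraries. Over all protein-coding genes, 12140 of 22132 starts did. The distances that follow cover only starts chosen for lying inside a region, so closeness to the start was in part fixed by that choice. Member regions that hold no annotated start of the member are left out of them. Over the 73 open starts, the centre of the region lay a median of 75 bp upstream of the start, with 67 of 73 centres within 250 bp of it. The middle values of the region edges were 548 bp upstream and 380 bp downstream. NDUFS1, the largest subunit of complex I, had the centre farthest from its start, at 418 bp. Over all open starts the median distance in either direction was 101 bp, against 91 bp for members.

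**Figure D2:**
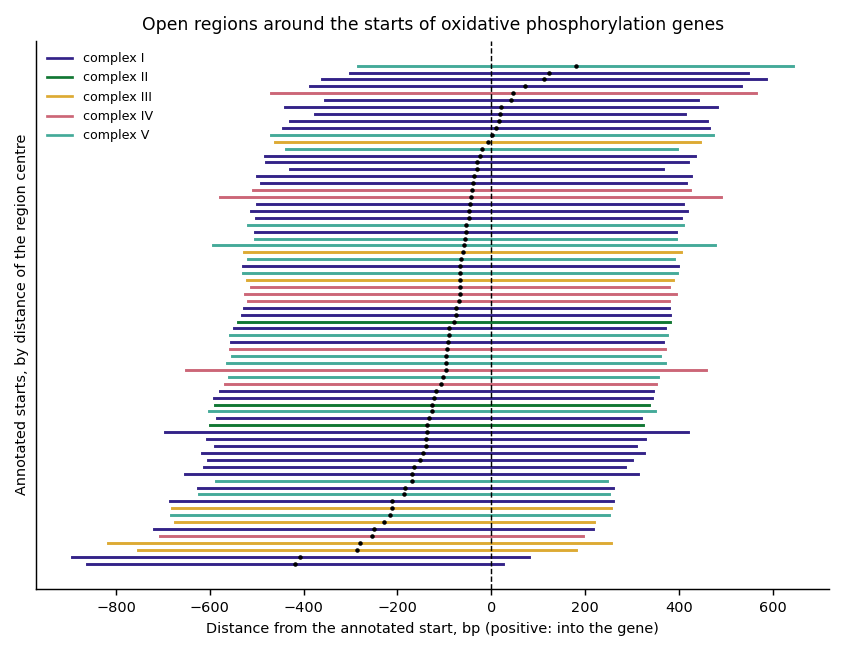
Each line is the open region around 1 annotated start of an oxidative phosphorylation gene, with distance from the start in bp on the horizontal axis, coloured by complex, and its centre as a dot. The starts are ordered by the position of the centre, and 67 of 73 centres lie within 250 bp of the start, most on the upstream side. Only starts that lie inside an open region are shown.

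Many of these regions lay at more than 1 gene. The open ends of 38 of the 76 open members included a region that is also at an end of another protein-coding gene, which is 50%, against 33.1% of all open genes. Of 65 members with an open annotated start, 22 (33.8%) shared that region with the start of another gene on the opposite strand, against 18.3% of all genes; the count covers starts in the promoter table only. The partners included GABPA, the gene of the ETS factor itself, which shares its region with ATP5PF, so that their 4 values are 1 measurement (80.9, 88.4, 98.8 and 84.7 gene-end CPM in Carrier 12, Carrier 31, Inflachromene 11 and Inflachromene 35). NDUFS6 shared a region with MRPL36 and NDUFB5 with MRPL47, both of the large mitochondrial ribosomal subunit, NDUFB10 with RPS2 and NDUFA7 with RPS28, both of the small cytosolic subunit, NDUFS1 with the translation factor gene EEF1B2, and SDHD with TIMM8B, a chaperone of mitochondrial import. NDUFC2 and its readthrough NDUFC2-KCTD14 rest on the same counts, and ATP5MF and its readthrough ATP5MF-PTCD1 share 1 region. In these shared regions accessibility cannot be assigned to either partner; NDUFB10 also had a region at its own start that no other gene shared.

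Levels were compared between genes per kb of covered region, as gene-end CPM per kb. The value covers 2 regions in 11 members, UQCRC1 and COX6A1 among them, and 3 regions in 1 member. A weaker region away from the start lowers such a value. The 76 open members had a median of 75.5, against 64.3 over all open gene ends, 70.5 for mitochondrial and 90.5 for cytosolic ribosomal protein genes, and 49 of the 76 lay above the median of all gene ends. The levels covered a 12.4-fold range. ATP5MC1 was highest at 363, 374, 339 and 362 in Carrier 12, Carrier 31, Inflachromene 11 and Inflachromene 35, at percentile 99.8 of all gene ends, and all 4 of its values lay above every value of the next member. That next member was NDUFS1 at 150, 155, 154 and 152. From NDUFS1 down to COX6C the values of each neighbouring pair in the order overlapped.

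Within complexes the top and bottom members were these. In complex I, NDUFS1 led and NDUFA9, an accessory subunit of the matrix arm, was lowest at 35.1, 34.8, 29.2 and 34.4. In complex II, SDHB, the iron-sulfur subunit, stood at 141, 148, 140 and 147, and SDHA at 65.2, 69.0, 70.8 and 69.4. The catalytic flavoprotein subunit and its iron-sulfur partner, which form 1 enzyme, thus differed by 2.099-fold in accessibility. In complex III, UQCRH led, and the core subunit gene UQCRC1 was lowest at 49.6, 47.3, 48.1 and 47.6. In complex IV, COX5A stood at 103, 85.6, 93.7 and 102, and COX6C was lowest of all members at 30.6, 27.4, 30.2 and 28.1. In complex V, ATP5F1A, which encodes the alpha subunit of the catalytic head, was lowest at 41.1, 38.7, 39.6 and 36.2, while its partner ATP5F1B, the beta subunit, stood at 106, 104, 116 and 131. Complex III had the highest median (84.7) and complex IV the lowest (66.4). In the dot plot of levels the 4 libraries cluster at each gene, and the spread between genes exceeds that between libraries.

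**Figure D3:**
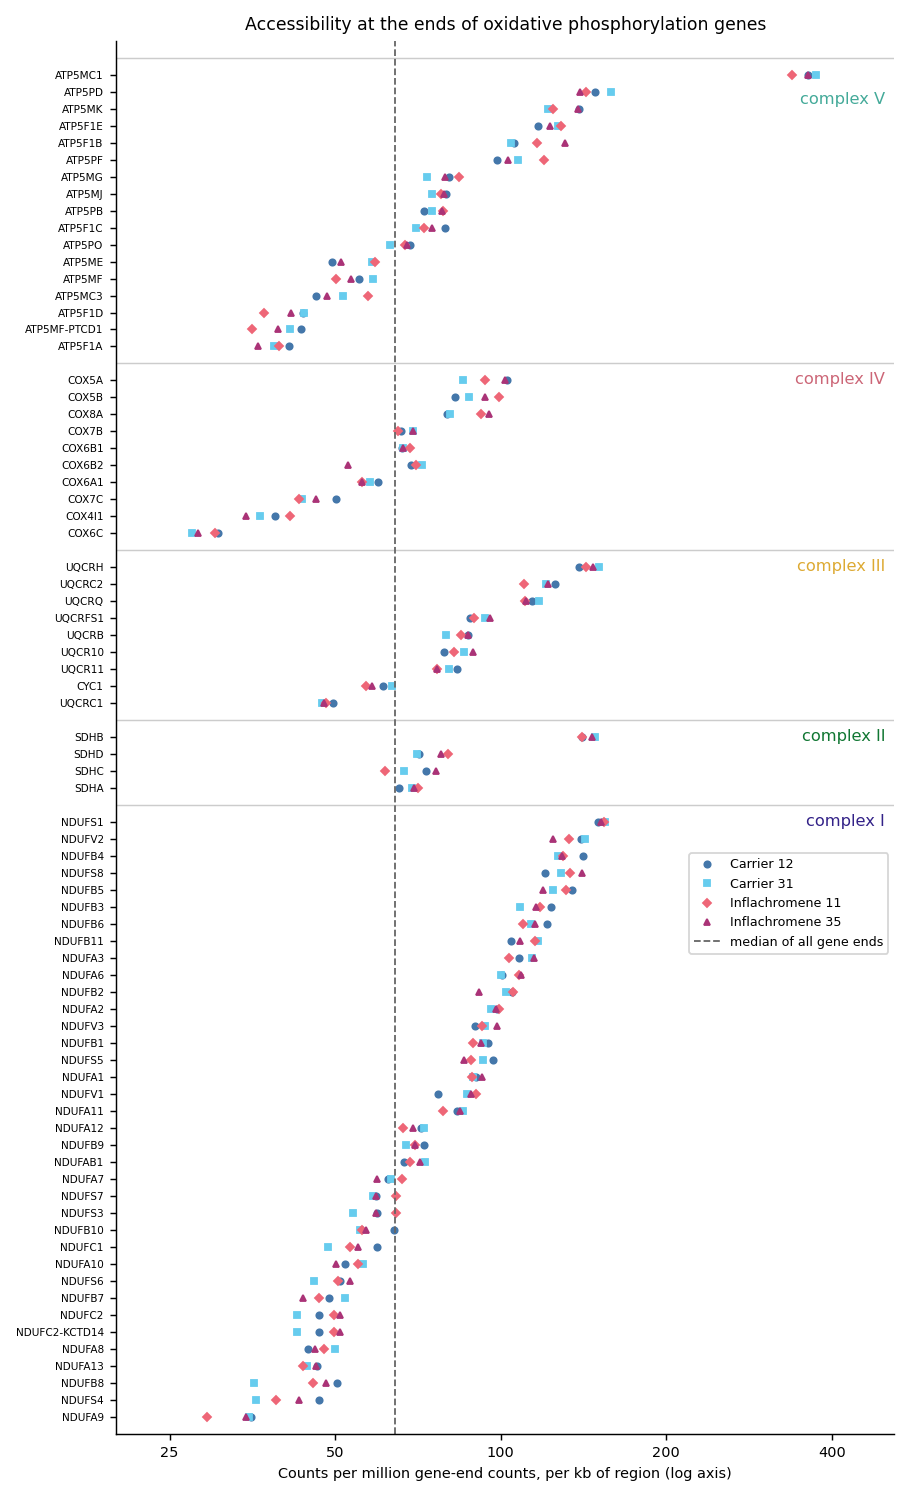
Gene-end CPM per kb of region, on a log axis, for each of the 76 open members in the 4 libraries, grouped by complex; the dashed line is the median of all gene ends, 64.3. ATP5MC1 stands alone at 339 to 374, and COX6C is lowest at 27.4 to 30.6.

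Levels were also set out by motif. The 40 members with at least 1 NRF1, ETS or YY1 match in an open start had a median of 72.1 gene-end CPM per kb, and the 21 without one 95.9. Those with CCAAT (19 members) had a median of 104 against 69.2 for the 42 without. No test was made of these medians. Their median treatment differences were near 0 as well, at 0.01 and -0.00 on the log2 scale with and without an NRF1, ETS or YY1 match.

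In single nuclei the member ends were sampled sparsely. Among barcodes with at least 2000 counts, the median number of the 76 member genes with a count was 23 and 40 in the Carrier libraries (mice 12 and 31) and 27 and 25 in the Inflachromene libraries (mice 11 and 35). The barcodes of Carrier 31 were also the deepest, with a median of 34064 counts against 16316.5, 18278 and 20122.5 in the other libraries. After each barcode was thinned to 2000 counts, the mean numbers were 6.09, 6.14, 6.44 and 5.70, so that the lead of Carrier 31 went with its depth. The carrier values lay between those of the treated libraries.

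No member passed the test of treated against carrier grafts. Counts were summed over the nuclei of a graft, so a change in the share of nuclei and a change within nuclei cannot be told apart. In edgeR's quasi-likelihood test on counts summed per library, 0 of 76 members passed an adjusted p of 0.05 (Benjamini-Hochberg over all 12807 gene ends), and 0 of 12807 gene ends did (0%). At an unadjusted p under 0.05 there were 2 members (2.63%), ATP5F1B and COX8A, against 745 gene ends (5.82%). DESeq2 called 0 members and 23 gene ends (0.18%). Exactly 38 of the 76 had a fold change above 0, with a median log2 fold change of 0.00 (-0.00 over all gene ends) and a range from -0.20 in COX6B2 to 0.24 in ATP5F1B. In 13 members both treated libraries lay above both carrier libraries (17.1% of all gene ends did so) and in 15 they lay below (17.4%). These shares, 17.1% and 19.7% of the members, are close to the background.

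The precision bounds what could have been missed. For all 76 members the 95% interval stayed within 0.5 of 0 on the log2 scale, against 80.6% of all gene ends, and 31 members stayed within 0.25. The median interval reached 0.19 to either side. Between the libraries, the median standard deviation of log2 levels was 0.08 at members and 0.09 at all gene ends. Without the barcodes found in more than 1 library, 0 members were called and 3 had an unadjusted p under 0.05, and the same counts were found with only barcodes of at least 2000 counts. Without the shared barcodes NDUFV2 came to -0.02 in place of -0.13, CYC1 to -0.04 in place of -0.11 and ATP5MF-PTCD1 to -0.11 in place of -0.18, whereas COX8A came to 0.32 in place of 0.22 and COX5B to 0.25 in place of 0.18.

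**Figure D4:**
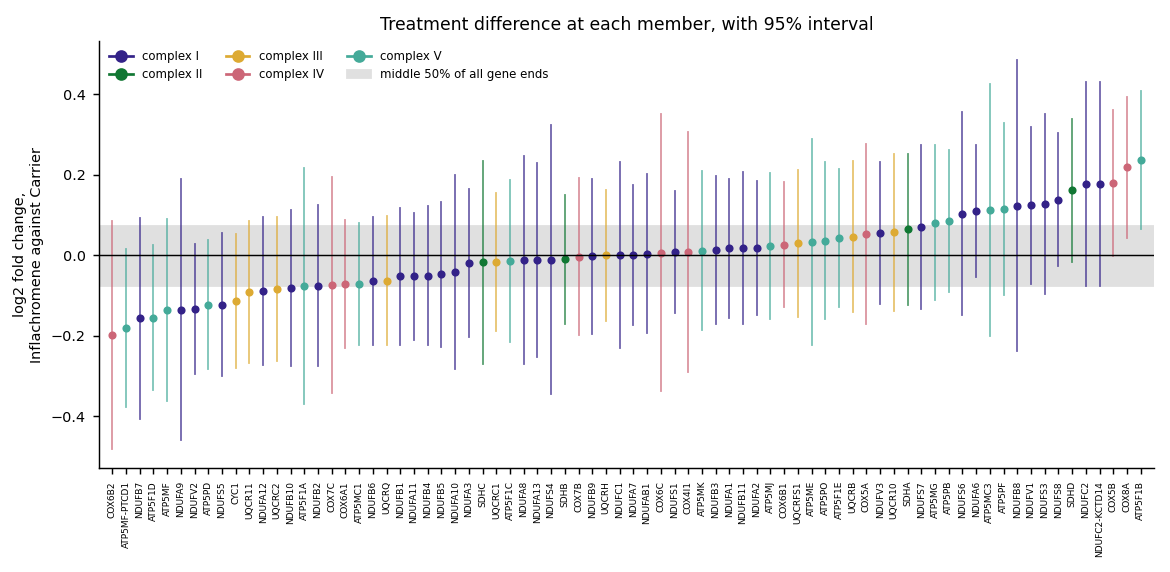
Log2 fold change of Inflachromene against Carrier at each of the 76 open members, ordered by value and coloured by complex. The 95% intervals were derived from edgeR's fold change and F statistic. The grey band holds the middle 50% of all gene ends. The values run from -0.20 to 0.24 and 38 of 76 lie above 0, with the complexes mixed along the order.

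Taking the complexes in turn, 17 of 36 open complex I members were higher in the treated libraries and 19 lower. NDUFS8 had 109 and 117 gene-end CPM in the Carrier libraries and 121 and 127 in the Inflachromene libraries, a log2 fold change of 0.14 (SE 0.07, edgeR adjusted p 0.878). NDUFV2, an iron-sulfur subunit of the part that oxidises NADH, had 126 and 128 against 120 and 112 (-0.13, SE 0.07, edgeR adjusted p 0.878). Both pairs of groups were separate without passing the test. NDUFS8 came to 0.09 without Carrier 12, and NDUFV2 to -0.08 without Inflachromene 35. The 10 Mb windows that hold the 2 genes moved the same way, with log2 fold changes of 0.10 and -0.12. These are of counts summed over all regions of a window, the gene's own included.

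In complex II, SDHD had 64.0 and 63.7 gene-end CPM against 72.3 and 70.4 (0.16, SE 0.08, edgeR adjusted p 0.878), with separate groups. SDHA had 58.4 and 61.8 against 63.4 and 62.2 (0.06, SE 0.08), with the lowest treated value just above the highest carrier value, and came to 0.02 without Carrier 12 and 0.10 without Carrier 31. SDHB and SDHC, the other subunits, had overlapping groups. In complex III, CYC1, the gene of cytochrome c1, had 98.4 and 102 against 91.6 and 93.7 (-0.11, SE 0.07), and UQCR11 had 74.3 and 71.9 against 68.5 and 68.6 (-0.09, SE 0.08). Both were lower in each treated library, with edgeR adjusted p of 0.898 and 0.934. Of the 9 open complex III members, 3 were above 0 and 6 below.

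In complex IV, COX8A had 70.5 and 71.2 gene-end CPM in the Carrier libraries and 80.9 and 83.8 in the Inflachromene libraries (log2 fold change 0.22, SE 0.08, edgeR unadjusted p 0.0199 and adjusted p 0.823). COX5B, a zinc-binding subunit, had 74.2 and 78.8 against 89.1 and 84.3 (0.18, SE 0.08, edgeR adjusted p 0.852). The groups were separate in both. Counts summed over the 10 Mb window had a log2 fold change of 0.10 for COX8A and 0.14 for COX5B. In a fit that offset each gene by its window, COX8A came to 0.12 (edgeR unadjusted p 0.308) and COX5B to 0.04. In that fit SDHD came to 0.09, NDUFS8 to 0.04 and NDUFV2 to -0.01, while SDHA came to 0.10. ATP5F1B came to 0.23 there and was the only member with an unadjusted p under 0.05 in it (edgeR unadjusted p 0.0388 and adjusted p 0.9999). Over all 76 members the median size of the log2 fold change was 0.06 without and 0.04 with the window offset, and over the gene ends with a window 0.07 and 0.06.

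In complex V, ATP5MF-PTCD1 had 76.9 and 73.6 gene-end CPM against 62.8 and 70.0 (-0.18, SE 0.09, edgeR adjusted p 0.877), with separate groups. The value came to -0.11 without Inflachromene 11, to -0.26 without Inflachromene 35 and to -0.10 with the window offset. This readthrough of ATP5MF and the RNA-processing gene PTCD1 shares its upper region with ATP5MF, which had 49.3 and 52.3 against 44.8 and 47.5. ATP5F1B had the smallest p of all members, with 182 and 180 gene-end CPM in the Carrier libraries and 200 and 226 in the Inflachromene libraries (log2 fold change 0.24, SE 0.08, edgeR unadjusted p 0.0118 and adjusted p 0.822). Without Inflachromene 35 it came to 0.15, and without Inflachromene 11 to 0.32. Its value sums 2 regions. The region over its upper end, chr12:56645666-56646588, had a log2 fold change of 0.12 (SE 0.15) with overlapping groups. The region beyond its lower end, chr12:56636235-56637297, had 53.6 and 54.3 region CPM in the Carrier libraries and 71.8 and 73.2 in the Inflachromene libraries (0.43, SE 0.14, edgeR unadjusted p 0.0135 and adjusted p 0.9996), and it holds the annotated start of BAZ2A, which encodes a subunit of a nucleolar chromatin remodeler.

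The peaks called in that region differed between the groups. Each Carrier library had 1 peak there, of 679 and 667 bp and 1621 and 1420 counts. Each Inflachromene library had a peak at the same place, of 622 and 651 bp and 1067 and 1685 counts, and another peak over the BAZ2A start itself, of 308 bp with 629 counts in Inflachromene 11 and of 288 bp with 743 counts in Inflachromene 35. Per 1000000 counts of the whole library, the common peak had 48.6 and 48.5 in the Carrier libraries and 39.4 and 42.2 in the Inflachromene libraries. On that total both treated values lay below both Carrier values. The order can change with the total used, since counts at gene ends made up 43.4% and 47.2% of the Carrier libraries. In Inflachromene 11 and 35 they made up 48.0% and 40.7%. The covered length at ATP5F1B was 1597 and 1587 bp in the Carrier libraries and 1852 and 1854 bp in the Inflachromene libraries. When a library's own peaks within 1000 bp of the gene were counted alone, which leaves out the added peak, ATP5F1B came to -0.05. The reads at the BAZ2A start of the Carrier libraries lie outside their called peaks and were not analysed here. A covered length that differed by over 1.1 times between libraries was found in 10 of 76 members (13.2%) and in 26.0% of all gene ends.

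**Figure D5:**
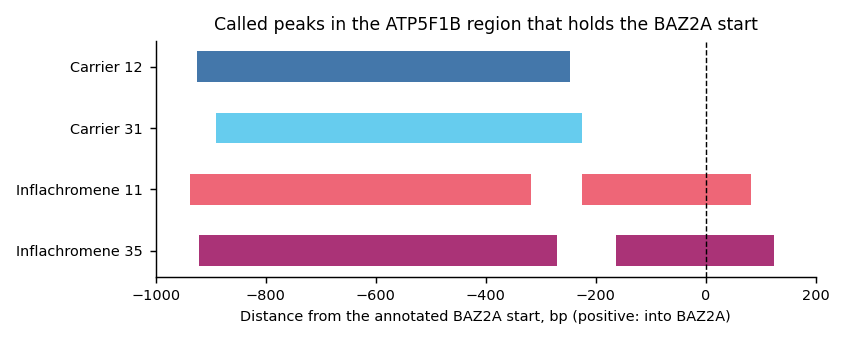
Called peaks of each library in the region near ATP5F1B that holds the annotated start of BAZ2A, with distance from that start in bp on the horizontal axis. All 4 libraries share the left peak; the peak over the start, 308 and 288 bp long, was called in the Inflachromene libraries and in neither Carrier library.

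Each open region was also tested on its own. Of 87 member regions, 0 passed an adjusted p of 0.05 and 1 had an unadjusted p under 0.05 (1.15%, against 2274 of 50771 regions, 4.48%), the BAZ2A-side region of ATP5F1B. The median log2 fold change was 0.04 (0.01 over all regions) and 57 of 87 lay above 0. That count moved between 25 and 73 when 1 library was left out, so that no direction can be read from it. Counted per member, 40 regions held the annotated start of the member alone and 22 also that of another gene, whereas 6 held a start of another gene and none of the member's own, for NDUFB5, NDUFB6, NDUFC2, ATP5F1B, NDUFA11 and NDUFA7; NDUFB5, NDUFC2 and ATP5F1B have no start of their own in the promoter table.

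The share of a library's counts that fell on the 76 members was 0.344% and 0.370% in the Carrier libraries and 0.376% and 0.320% in the Inflachromene libraries, or 0.357% ± 0.0179 (SD, n = 2) against 0.348% ± 0.0394 (SD, n = 2). The difference of -0.00896 percentage points was smaller than the spread between treated libraries. The share of all counts at gene ends ranked the libraries the same way, at 43.4%, 47.2%, 48.0% and 40.7%. Among counts at gene ends, the members took 0.793% and 0.784% in the Carrier libraries and 0.783% and 0.787% in the Inflachromene libraries, so that the differences between libraries shrank once the overall share at gene ends was taken out.

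The genes that build and feed the respiratory chain were looked up in 9 lists with 150 genes, of which 146 had an open end and 145, those with a region at an end open in all libraries, were tested. None passed an adjusted p of 0.05 and 7 had an unadjusted p under 0.05 (4.83%, against the 5.82% of all gene ends). Among 58 assembly factors for complexes I to IV, all open, 3 were in that group. FOXRED1, which helps assemble complex I, had 119 and 120 gene-end CPM in the Carrier libraries against 135 and 135 in the Inflachromene libraries (0.18). UQCC5, an assembly factor of complex III, had 112 and 121 against 104 and 99.1 (-0.19), and LRPPRC, which stabilises mitochondrial messenger RNAs, had 77.6 and 78.1 against 84.6 and 92.9 (0.19). All 3 had separate groups, 2 of them higher and 1 lower, against 34.6% of all gene ends with separate groups. They were picked by a small p, which favours separate groups, so the separation adds nothing to the p.

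Of the 15 transcription factors and coactivators of respiratory genes, 13 were open, GABPB2 and ESRRG were not, and none had an unadjusted p under 0.05. ESRRA, the gene of estrogen-related receptor alpha, had 324 and 360 gene-end CPM in the Carrier libraries and 392 and 351 in the Inflachromene libraries (0.12), with overlapping groups. Of 14 open genes of mitochondrial DNA maintenance and transcription, RNASEH1, which removes RNA primers, had 100.1 and 108 against 118 and 116 (0.17). Of 17 citric acid cycle genes, SUCLG1, a subunit of succinyl-CoA ligase, had 48.5 and 55.2 against 59.2 and 61.6 (0.22). In the glycolysis list, PGAM1 had 91.1 and 95.9 against 104 and 112 (0.21) and LDHA, lactate dehydrogenase A, had 60.7 and 58.1 against 67.5 and 70.9 (0.22). The edgeR adjusted p of RNASEH1, SUCLG1, PGAM1 and LDHA lay between 0.823 and 0.851. None of the 18 genes of coenzyme Q and cytochrome c and none of the 7 of ATP synthase assembly and inhibition had an unadjusted p under 0.05. The other genes of smallest p in each list did not reach that level. Higher in both treated libraries were NDUFAF7 (0.17), SDHAF1 (0.17), DLAT (0.15) and ETFA (0.19), lower in both were COX16 (-0.16), FMC1 (-0.08), POLG (-0.13) and ETFB (-0.12), and TMEM70 (0.11) overlapped. The median log2 fold change of the 9 lists lay between -0.02 and 0.02.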

How the data were processed

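Single-nucleus ATAC-seq was measured in 4 libraries, 2 per group by the treatment label. For each library the authors deposited called peaks (positions on GRCh38), barcodes and whole-number counts per peak and barcode, not normalized; Cell Ranger ATAC (2.1.0) and Cell Ranger ARC are named in the submitters' processing notes, with build GRCh38. Settings: not given in the sources used here. Most entries above 0 (82.4% to 84.9%) were even, so 2 counts are often 1 fragment.

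Peaks overlapping by at least 1 bp were merged, and the 50771 of 128195 merged regions with a peak in all 4 libraries were kept as consensus regions. Peaks were called per library, so a region's count moves with the length called. Counts over all barcodes were summed at consensus regions up to 1000 bp from the outer ends of each gene (RefSeq, GRCh38.p14, no strand). edgeR 4.0.16 (R 4.3.3; TMM, filterByExpr, which removed 0, quasi-likelihood F test, Benjamini-Hochberg, threshold 0.05) was the main test, and DESeq2 1.42.0 an alternative. Scripts ran in Python 3.11.15. The edgeR step was tested on simulated counts.

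Full values were given for the 2 members of each complex with the smallest unadjusted p, members with an unadjusted p under 0.05, the highest and lowest of each complex per kb, isoform pairs, and fold changes for the 2 genes of smallest p per list. The regions of ATP5F1B were taken apart after its values were seen. Members were chosen by symbol, and the lists were chosen with earlier results of these data known. Alternatives changed the scaling, filter, tool, barcodes, distance, peak set and library set, with a window offset over 10 Mb windows of at least 20 regions. Barcodes that libraries share were left out as an alternative chosen after seeing the data. 18 members had no promoter entry and are not analysed for motifs here. The values of 1 member without an open end are not reported here.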

Additional observations from a re-analysis of the deposited data

How the results depend on the processing

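In none of 16 alternatives for gene ends and none of 12 for regions was a member called, and the smallest adjusted p of a member, 0.145, came without Inflachromene 11. Over all gene ends, DESeq2 called 23, counting barcodes in place of counts 22, and counting every peak of a library 1, against 0; leaving out 1 library gave 0 to 68. Over all regions DESeq2 called 28, and leaving out 1 library 0 to 3180, the most without Inflachromene 11. Of 205 alternative values of the members and inner regions named, 194 kept their direction, each short of the adjusted threshold. ATP5F1B turned to -0.046 with every peak of a library counted within the distance, and fell to 0.08 at 500 bp. The COX7A2 inner region, near 0, turned to 0.0020 with DESeq2 and with its size factors in edgeR, to 0.0079 with barcodes counted and to 0.0068 without shared barcodes; leaving out 1 library gave -0.092 to 0.081 there, -0.022 to 0.13 at ATP5MC2 and -0.097 to 0.13 at NDUFA5. The number of members with a peak in all libraries was 76 to 78. No paired analysis was possible because the groups share no mouse number. With 2 mice a group the median 95% interval of a member reached 0.19 to either side, and larger differences, such as 0.24 at ATP5F1B, also missed the adjusted threshold.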
